A study of Mus musculus with 12 samples.

Results

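Gamma-secretase is a membrane-embedded protease made of a catalytic presenilin such as Psen2, the substrate receptor nicastrin (Ncstn), an Aph1 scaffold (Aph1a, Aph1b or, in mouse, Aph1c) and the small activator Pen-2, encoded by Psenen. It cuts transmembrane stubs left by other proteases, and its best known substrates in T cells are the Notch receptors. The freed intracellular part of Notch binds the DNA-binding factor Rbpj and switches it from repression to activation. The genes described here are 5 subunit genes of the enzyme (Psenen, Psen2, Ncstn, Aph1a, Aph1b), the receptors Notch1 and Notch2, and Rbpj. They were taken by symbol from a deposited table of 11581 genes. Of the 8 genes, 7 had a row, and Aph1b was not analysed here. The 8 were selected on their normalized counts in these same scurfy and wild-type libraries. Their differences are therefore given as a description. Calls from a fit over the whole table are stated for them, but these are not an independent test.

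The study compared CD8 T cells that carry the scurfy mutation of Foxp3, a forkhead transcription factor, with wild-type CD8 T cells. OT-1 is a T cell receptor transgene specific for an ovalbumin peptide, SIINFEKL. The series has 12 samples in 4 groups: Foxp3Scurfy or Foxp3wt cells, each without stimulation or with 6 h of peptide, and 3 libraries per group. The 6 unstimulated libraries are analysed here and the 6 stimulated ones are not, since the 2 tables are identical and name only the unstimulated libraries. For the scurfy group the mice carried mixed bone marrow from OT-1 Foxp3Scurfy CD45.1+/2+ donors and from CD45.2+ donors. For the wild-type group the marrow came from OT-1 Foxp3wt CD45.1+/2+ donors and, again, from CD45.2+ donors. The strain is recorded as CD45.2+ C57BL/6 J for both groups, and fresh, purified CD8 T cells were taken 2 months after reconstitution. Being chimeras, the mice of both groups held cells of both donors, and the labels used here do not say whether a gate kept the OT-1 cells only or whether each library came from a separate mouse. P-values therefore measure the spread between these libraries, which may be technical.

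The libraries held 8852518 to 23149523 reads over the table, with wild-type library 2 the deepest. All 9 markers of CD8 T cells had a row, and their summed level was 73410 to 79451 normalized counts in scurfy and 67542 to 68420 in wild-type libraries; of the 9, Cd3d rose and the others did not pass. Normalized counts are reads divided by 1 size factor per library, as the authors deposited them. Cd4 and Foxp3 have no row, nor do Cd79a and Ms4a1 of B cells or Lyz2 and Csf1r of myeloid cells, which says nothing about their level. The genotype labels were thus not checked against the mutated gene. In the comparison of scurfy with wild type, limma called 518 genes, which is 4.47% of the table (2.12% higher and 2.35% lower in scurfy), and in 27.1% of all genes the scurfy and wild-type libraries did not overlap. In bulk RNA, fewer cells that express a gene and less RNA per cell cannot be told apart.

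Short stretches of DNA at the start sites give the setting of these genes in the genome. Psenen lies on the minus strand of chromosome 7, head to head with U2af1l4, a splicing factor gene that has no row in the table. In GENCODE M21, 59 bases separate the starts of 1 pair of their transcripts, Psenen-201 and U2af1l4-218. Over all transcripts the gene starts lie 326 bases apart, and exons of the 2 genes overlap by 119 bases. Gm49396, another protein-coding gene on the other strand, starts 283 bases away, shares 111 bases of exon and has no row. The RefSeq starts of Psenen lie on both sides of the 59 bases, not at their end. This run of 59 bases is printed because Psenen-201, of the most changed subunit gene, begins at its end. It is read on the strand of Psenen, at chr7:30563242-30563300 of GRCm38.p6 (RefSeq promoter table), with its 4 CG dinucleotides in capitals.
U2af1l4 to Psenen: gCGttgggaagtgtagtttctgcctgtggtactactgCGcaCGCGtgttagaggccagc
Promoter windows, from 250 bases before to 50 after each RefSeq start, were then searched on both strands for GTGGGAA, the core letters bound by Rbpj. Of the 11 windows of the 8 genes 2 held it, at Psen2 and Aph1a, against 6.38% of 32851 windows of all genes. No window of Psenen, Ncstn, Notch1, Notch2, Rbpj or Aph1b held these letters. Of the pathway genes listed further on, 92 had windows, and 10 of them held the letters (Sppl2a, Spen, Snx17, Lfng, Adam8, Hey2, Prf1, Cd99l2, Hes5 and Il6ra), in 8.62% of their 116 windows. The matches of the chosen genes are shown in capitals, with those of Hes5, a classical Notch target, and of Il6ra, the only called gene among the 10. They lie at chr1:180246022-180246050 (Psen2, minus strand), chr3:95893906-95893934 (Aph1a, plus strand), chr4:154960829-154960857 and chr4:154960686-154960714 (Hes5, plus strand) and chr3:89913194-89913222 (Il6ra, minus strand), all in GRCm38.p6. TTCCCAC is the same motif on the other strand.
Psen2: gcacaggagacTTCCCACagatgtttatc
Aph1a: gccttccggggGTGGGAAttagatgggag
Hes5, near: ggccgccgagtGTGGGAAcggccgcggcg
Hes5, far: gggcgagcgcgTTCCCACagcccggacat
Il6ra: gtcacgtgcatGTGGGAAgtcgcgcccac
Relative to the start, the motif began at -4 in Aph1a, at -15 in Il6ra, at -83 and -226 in Hes5 and at -89 from 1 of the 2 starts of Psen2. The forkhead letters TGTTTAC, a core motif of the family to which Foxp3 belongs, were in none of the 11 windows and in 3.65% of all windows. They were in 8 of the 116 windows of the pathway genes (6.90%), and this difference was not tested. At such shares, 11 windows are too few to read anything from a lack of matches. A match is a description of letters, not of binding, and no match says only that the letters are not in this window.

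Among the wild-type libraries the genes covered a wide range of levels. To compare genes, normalized counts were divided by the kilobases of exon in GENCODE M21. Psenen was highest, at 399 ± 29.7 normalized counts per kb (SD, n = 3 here and below). Nicastrin followed at 133 ± 11.2. The presenilin gene Psen2 was at 87.1 ± 11.5. Notch1 was at 69.5 ± 3.08, and its highest library lay below the lowest of Psen2. No other neighbours in this order overlapped either. Aph1a was lower, at 23.2 ± 6.29, and Rbpj at 12.1 ± 1.10. Notch2 was lowest, at 3.09 ± 1.21, so Notch1 was the main Notch receptor transcript of these cells on this scale. Notch4, a receptor best known from endothelium, was at only 10.4 ± 4.92 normalized counts before any scaling by length, and Notch3 has no row. Reads of such oligo-dT primed libraries come mostly from the 3′ end, so scaling by length may overstate short genes such as Psenen, whose exons span 1275 bases against a median of 4075 over the table. With the longest transcript in place of all exons, 4 of the 7 genes changed place: Psen2 passed Ncstn and Rbpj passed Aph1a, in both cases with overlapping libraries.

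**Figure D1:**
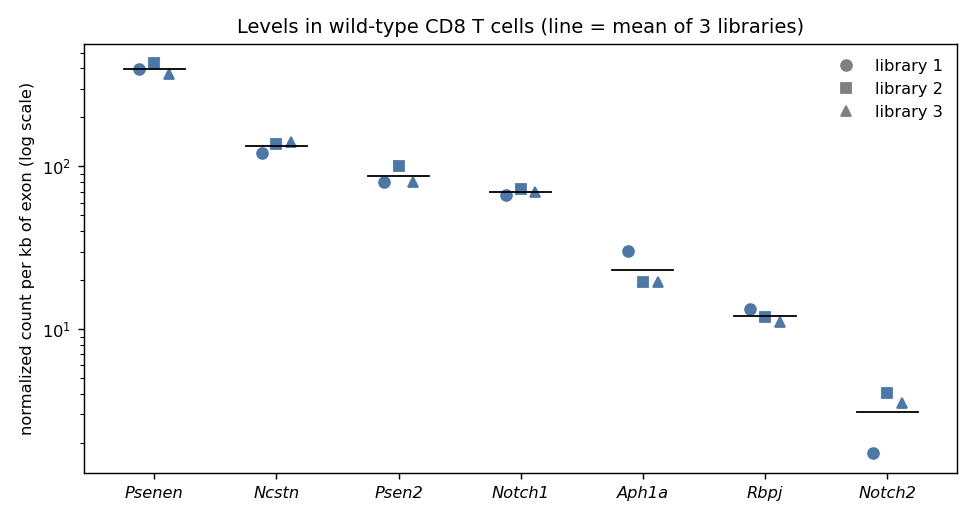
Level of each gene in the 3 wild-type libraries, in normalized counts per kb of exon on a log axis, with a line at the mean. Psenen lies at 369 to 429, above every library of Ncstn, while Notch2 lies at 1.73 to 4.03, below every other gene. Without scaling by length, Notch1 is highest and Psenen and Ncstn overlap.

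Psenen, the activating subunit that completes the complex and lets presenilin cut itself into its active form, had the clearest difference between the groups. It was at 509, 547 and 471 normalized counts in wild-type libraries 1 to 3. In scurfy libraries 1 to 3 it was at 963, 920.2 and 943. All 3 scurfy libraries were above all wild-type libraries, and the lowest of them was well clear of the highest wild-type library. The means were 942 ± 21.3 in scurfy and 509 ± 37.9 in wild type, a ratio of 1.85 and a log2 fold change of 0.89 (SE 0.12). Psenen was the only one of the 7 genes that limma called over all genes, where 4.47% of the table was called; the choice of genes used this contrast, so nothing is read from that count. Behind these values stood 754 to 798 reads per scurfy library and 383 to 1131 per wild-type library. The coefficient of variation was 2.26% among scurfy and 7.45% among wild-type libraries, below the medians of 14.9% over all genes in each group. Those medians are not a like comparison, since 77.9% of genes had a lower mean than Psenen. Notch1, also well counted, was at 5.21% in scurfy and 4.44% in wild type.

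Across the 15 other ways of processing, the log2 fold change of Psenen ran from 0.74 to 0.94. The 729 genes with 1000 to 1600 bases of exon, the range in which Psenen falls, differed by a median of 0.13 on the log2 scale, against 0.01 over all genes, with 5.90% called higher and 1.10% lower. With the trend on length taken out, Psenen was at 0.74. Scaled by library size alone it was at 0.75, a scaling that lowered the median of all genes by 0.14 on the log2 scale. The authors' deposited table gives it a log2 fold change of 0.89 (SE 0.14). On the other strand, U2af1l4 overlaps exons of Psenen by 119 bases and Gm49396 by 111 bases. The sources used here do not give whether strand was used in counting.

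The other subunit genes lay closer together. Psen2, a presenilin that in many cells sits mostly in late endosomes and lysosomes, was at 348, 435 and 349 normalized counts in wild-type libraries 1 to 3. In scurfy libraries it was at 455, 419 and 469. Scurfy library 2 lay below wild-type library 2, so the groups overlapped, and the log2 fold change was 0.25 (SE 0.15), or 0.12 on library size alone.

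Nicastrin, the glycoprotein that admits substrates by size, was at 479, 546 and 563 normalized counts in wild-type libraries 1 to 3. In scurfy libraries it was at 484, 394 and 439. Wild-type library 1 lay below scurfy library 1, so the groups overlapped, and the log2 fold change was -0.27 (SE 0.14), or -0.41 on library size alone. Its exons overlap those of Copa, a coatomer gene whose start lies 266 bases away on the opposite strand, by 195 bases. Copa fell, averaging 757 ± 74.1 normalized counts in scurfy libraries against 1195 ± 169 in the wild-type ones (log2 fold change -0.65, SE 0.13). The Aph1a scaffold was at 105, 67.7 and 67.1 in wild-type and 90.8, 80.5 and 132 in scurfy libraries. Wild-type library 1 lay above 2 of the scurfy libraries, and the spread was wide in both groups, with coefficients of variation of 27.1% in scurfy and 27.2% in wild type. Its log2 fold change of 0.34 (SE 0.29) dropped to 0.13 when scurfy library 3 was left out, and leaving out wild-type library 1 gave 0.55.

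**Figure D2:**
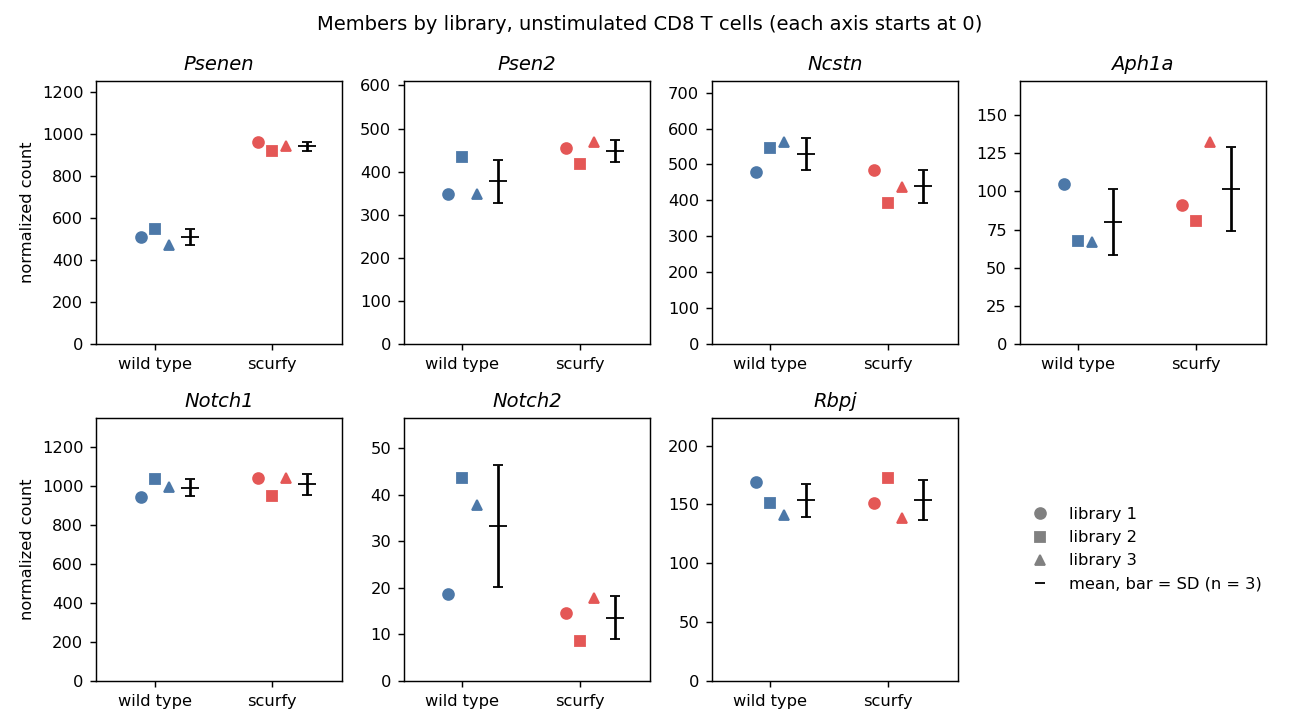
Normalized counts of the 7 genes in each unstimulated library, with the mean and SD of each group beside the points and every axis starting at 0. The scurfy points of Psenen (920.2 to 963) lie above all its wild-type points (471 to 547), those of Notch1 and Rbpj lie among the wild-type points, and Notch2 is low throughout.

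Because the subunits are built into 1 complex in equal numbers, ratios between their transcripts were taken within each library, where library size and scaling drop out. These ratios come from the contrast that chose the genes and are a description. For each Ncstn count there were 1.06, 1.00 and 0.836 counts of Psenen in wild-type libraries 1 to 3 and 1.99, 2.33 and 2.15 in scurfy libraries. The lowest scurfy ratio was well above the highest wild-type ratio, with means of 2.16 ± 0.174 and 0.967 ± 0.118. For each Psen2 count, Psenen stood at 2.11 ± 0.0943 in scurfy and 1.36 ± 0.103 in wild type, again without overlap. Ncstn per Psen2 was at 1.37, 1.25 and 1.61 in wild-type libraries and at 1.06, 0.942 and 0.935 in scurfy libraries. In these libraries Psenen was higher and Ncstn lower relative to Psen2 in scurfy than in wild type. The ratio of Ncstn to Psen2 did not overlap between the groups, although the single-gene values of Ncstn and Psen2 did. Neither Ncstn nor Psen2 was called. The groups did not overlap in 27.1% of single genes, and the share among ratios of other gene pairs was not counted. The ratios to Psen2 were chosen after values were seen, and no ratio to Aph1a was taken.

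**Figure D3:**
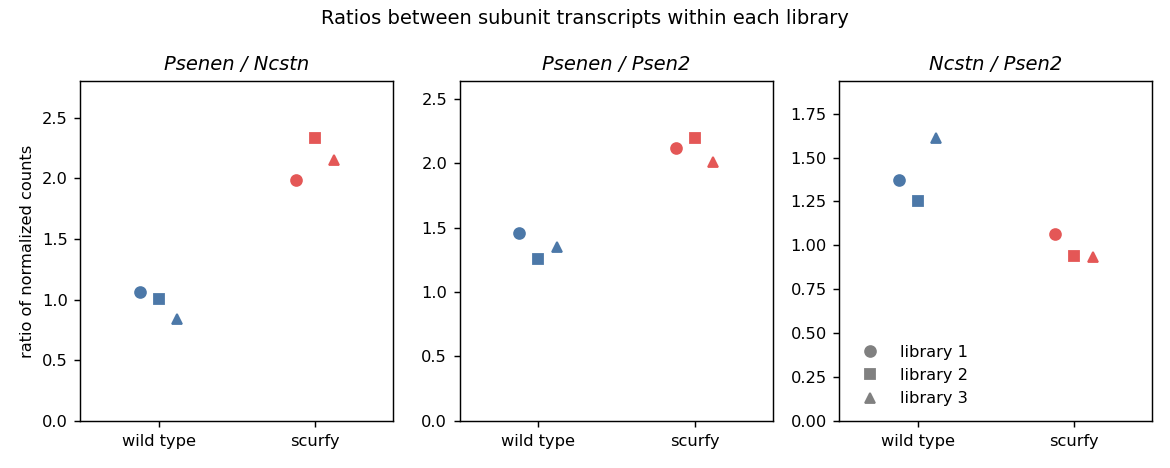
Ratios of normalized counts between subunit genes in each library, on axes starting at 0. Psenen per Ncstn is at 0.836 to 1.06 in wild type and 1.99 to 2.33 in scurfy, and Ncstn per Psen2 lies lower in every scurfy library.

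The Notch receptors differed from each other in level and in spread. Notch1, which is needed for T cell commitment in the thymus and is re-engaged during T cell activation, was at 944, 1031 and 992 normalized counts in wild-type libraries 1 to 3. In scurfy libraries it was at 1037, 946 and 1037. The groups overlapped almost fully, with means of 1006 ± 52.4 in scurfy and 989 ± 43.9 in wild type and a log2 fold change of 0.02 (SE 0.11). It was -0.11 on library size alone and 0.17 with the length trend removed, so no direction is given. A noncoding transcript, 0610009E02Rik, overlaps Notch1 exons on the other strand by 1068 bases, but at 9.27 ± 4.94 and 13.7 ± 9.05 normalized counts it was far below Notch1.

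Notch2, a receptor that in lymphoid tissue is known for marginal zone B cells and dendritic cells and that also acts in CD8 T cell effector differentiation, was among the lowest genes of the table (10.7% of genes had a lower mean). It was at 18.6, 43.5 and 37.8 normalized counts in wild-type and 14.5, 8.54 and 17.7 in scurfy libraries. Wild-type library 1 was close to scurfy library 3, with 14 reads against 15, so the groups were apart by about 1 normalized count there. The means were 13.6 ± 4.66 in scurfy and 33.3 ± 13.04 in wild type, a log2 fold change of -1.20 (SE 0.52), and limma did not call it. Leaving out wild-type library 1 gave -1.56, leaving out scurfy library 2 gave -0.92, and limited to genes with a mean of at least 50 it was not tested. The authors' deposited table lists a log2 fold change of -1.31 (SE 0.59) with no adjusted p.

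Levels of antigen-presenting cell genes are given beside Notch2. The MHC class II genes H2-Aa, H2-Ab1 and H2-Eb1 with Cd74 summed to 137 to 158 normalized counts in wild-type and 15.9 to 41.2 in scurfy libraries, and 1 of the 4, H2-Aa, fell (log2 fold change -3.97, limma adjusted p = 0.0164). Cd74, H2-Ab1 and H2-Eb1 did not pass (limma adjusted p = 0.202, 0.0638 and 0.0844). The call of H2-Aa ended without wild-type library 2 (limma adjusted p = 0.0662) or library 3 (0.0706). H2-Aa was at 15.7, 0 and 4.73 normalized counts in scurfy and 57.2, 84.1 and 73.9 in wild-type libraries. With values this low, the size of its change depended on the number added before the log. It was -4.35 with 0.5 added and -2.92 with 5 added. Of 13 markers of B cells 7 had a row, summing to 9895 to 11352 in scurfy and 10971 to 11753 in wild type, of which Ighm made up most. Of 14 myeloid markers 3 had a row, summing to 1534 to 1687 in scurfy and 920.2 to 1251 in wild type. Cst3 made up most of these sums, while Cd68 and Fcgr3 did not pass (limma adjusted p = 0.210 and 0.860). Cst3 rose (0.59, limma adjusted p = 0.0202). That call ended without scurfy library 2 (0.0562), scurfy library 3 (0.0514) or wild-type library 2 (0.0815), on library size alone (0.0529), and with the length trend removed (0.0850). Single markers of natural killer and erythroid cells had rows, and Nkg7, which CD8 T cells also express, rose by 0.76 while Car2 fell by 1.12 (limma adjusted p = 0.00918 and 0.0139). Without wild-type library 3 Car2 was no longer called (0.0645). Ctla4 of the CD4 list and Pecam1 of the stromal list did not pass. The part of any of these in the Notch2 or Psenen values was not tested.

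Rbpj, the factor through which all Notch receptors act on DNA, was at 169, 151 and 141 normalized counts in wild-type and 151, 172 and 138 in scurfy libraries. The groups were interleaved, with means of 154 ± 14.1 and 154 ± 17.0 and a log2 fold change of 0.00 (SE 0.21). Its value was -0.14 on library size alone and 0.14 with the length trend removed, so no direction is given.

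The surrounding pathway was described with 9 gene lists that leave out the 8 genes. Of 118 listed genes 97 had a row. In limma 3 of the 97 fell in scurfy and none rose, which is 3.09% against 4.47% of the table. At an unadjusted p under 0.05 there were 23 genes, which is 23.7% against 21.2% of the table. The median log2 fold change over the 97 was -0.08, against 0.01 over all genes, and the groups did not overlap for 25.8% of them, against the 27.1% of the table. By list this share ran from 6.67% of 15 Notch target genes to 50% of 10 enzyme regulators and of 14 other substrates. It was also 50% of the 2 ligands and other receptors. The lists are short, and differences between them were not tested. On library size alone 9 of the 97 fell, and without wild-type library 3 none passed.

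Among 10 regulators and assembly factors of the enzyme, Tmed10 fell and the other 9 did not pass. Tmed10 is a cargo receptor of the early secretory pathway that has also been found in presenilin complexes as a modulator of their cleavage. It was at 558, 505 and 558 normalized counts in wild-type and 378, 333 and 271 in scurfy libraries, a log2 fold change of -0.73 (SE 0.16, limma adjusted p = 0.0201). All scurfy libraries were below all wild-type libraries. The call ended without scurfy library 2 (limma adjusted p = 0.0549), scurfy library 3 (0.0561), wild-type library 1 (0.0590) or wild-type library 3 (0.0762). Its partner Tmed2 averaged 293 ± 91.3 in scurfy libraries against 470.2 ± 45.8 in wild-type libraries without passing (limma adjusted p = 0.0646). Rer1, which retains unassembled nicastrin and Pen-2 early in the secretory pathway, had a log2 fold change of -0.14 and did not pass.

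Upstream of gamma-secretase, none of the 4 proteases of Notch maturation and shedding passed. Adam10, the main sheddase of ligand-bound Notch, averaged 323 ± 57.9 normalized counts in wild-type libraries and 209 ± 80.5 in scurfy libraries (log2 fold change -0.69, SE 0.26, limma adjusted p = 0.147), and without scurfy library 3 it was at -0.33. Furin, which cuts Notch on its way to the surface, was at -0.08. Of the 4 other intramembrane aspartyl proteases, relatives of presenilin, none passed, and H13, the signal peptide peptidase, had the smallest p (log2 fold change 0.19, limma adjusted p = 0.268). Of 7 ligands and further receptors only Jag2 and Notch4 had a row. Jag2, a Notch ligand, was at 206, 210 and 216 normalized counts in scurfy and 87.7, 180 and 157 in wild-type libraries. It did not pass (log2 fold change 0.63, SE 0.25, limma adjusted p = 0.161), and without wild-type library 1, the lowest, it was at 0.32.

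Sugars added to Notch tune which ligands it answers, and none of the 9 glycosylation genes with a row passed. Mfng, a fringe enzyme, averaged 3664 ± 168 normalized counts in wild-type libraries and 2886 ± 125 in scurfy libraries. Its groups did not overlap, and it stood just outside the threshold (log2 fold change -0.34, SE 0.10, limma adjusted p = 0.0594), inside it on library size alone (0.0152), with genes of a mean below 50 left out (0.0490) and with DESeq2 (0.0224). The second fringe gene Lfng was at 0.31 (SE 0.13) with overlapping groups. None of the 16 genes of Notch trafficking and turnover passed either. There Cbl, a ubiquitin ligase, had the smallest p at -0.37 (limma adjusted p = 0.0743). Cbl was called on library size alone (-0.51, limma adjusted p = 0.0156) and with DESeq2 (adjusted p = 0.0426), while with the length trend removed it was at -0.24 (limma adjusted p = 0.255).

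Downstream, the list of coactivators and corepressors of Rbpj had 24 genes with a row, and 1 of them fell. The list includes Ccbl1 (Kyat1), a kynurenine aminotransferase that is not known as an Rbpj cofactor and did not pass. The gene that fell was Kat2b, a histone acetyltransferase that can join the Notch activation complex. It was at 331, 362 and 397 normalized counts in wild-type and 174, 160 and 226 in scurfy libraries (log2 fold change -0.97, SE 0.18, limma adjusted p = 0.0128). Every scurfy library was below every wild-type library, and only without wild-type library 3 did the call end (limma adjusted p = 0.0571). The coactivator genes Maml1, Maml2 and Maml3 did not pass, with log2 fold changes of -0.08, -0.49 and -0.08. The related acetyltransferase Ep300 averaged 351 ± 26.8 in scurfy libraries and 503 ± 112 in wild-type libraries without passing (limma adjusted p = 0.119). Ep300 was called when wild-type library 1, its lowest wild-type library, was left out.

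None of the 15 Notch target genes with a row passed, and their median log2 fold change was -0.15. Hes1, Hey1 and Hey2 have no row. Nrarp, a feedback inhibitor that Notch induces, averaged 101 ± 39.0 normalized counts in wild-type libraries and 71.5 ± 24.1 in scurfy libraries, with overlapping groups. Hes5 was near the bottom of the table at 12.7 ± 5.33 in wild-type and 9.61 ± 5.19 in scurfy libraries. Bcl11b, a T cell identity factor, had the smallest p of the list, at -0.29 (SE 0.11, limma adjusted p = 0.161). Several listed genes answer to other signals as well.

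Of 14 gamma-secretase substrates other than Notch with a row, Il6ra fell and 13 did not pass. Il6ra, the interleukin-6 receptor chain that is shed from T cells and then cut within the membrane, was at 1769, 1733 and 1810 normalized counts in wild-type and 1412, 1274 and 1015 in scurfy libraries. All scurfy libraries were below the wild-type libraries, with a log2 fold change of -0.53 (SE 0.13, limma adjusted p = 0.0275). It lost its call without scurfy library 2 (limma adjusted p = 0.0681) or 3 (0.0681), without wild-type library 1 (0.0727), 2 (0.0744) or 3 (0.0875), and with the length trend removed (0.0830). Cd44, an adhesion receptor that marks activated and memory T cells, had the most negative value of all the lists (-1.31, SE 0.43, limma adjusted p = 0.0933). It was at 50.5, 45.4 and 30.2 normalized counts in wild-type and 13.3, 18.3 and 16.5 in scurfy libraries, without overlap, and did not pass. Insr, the insulin receptor, was at -0.64 (limma adjusted p = 0.121). App, the amyloid precursor, was at 54.4 ± 16.0 and 88.4 ± 11.2 in scurfy and wild type and did not pass (log2 fold change -0.73, limma adjusted p = 0.196).

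**Figure D4:**
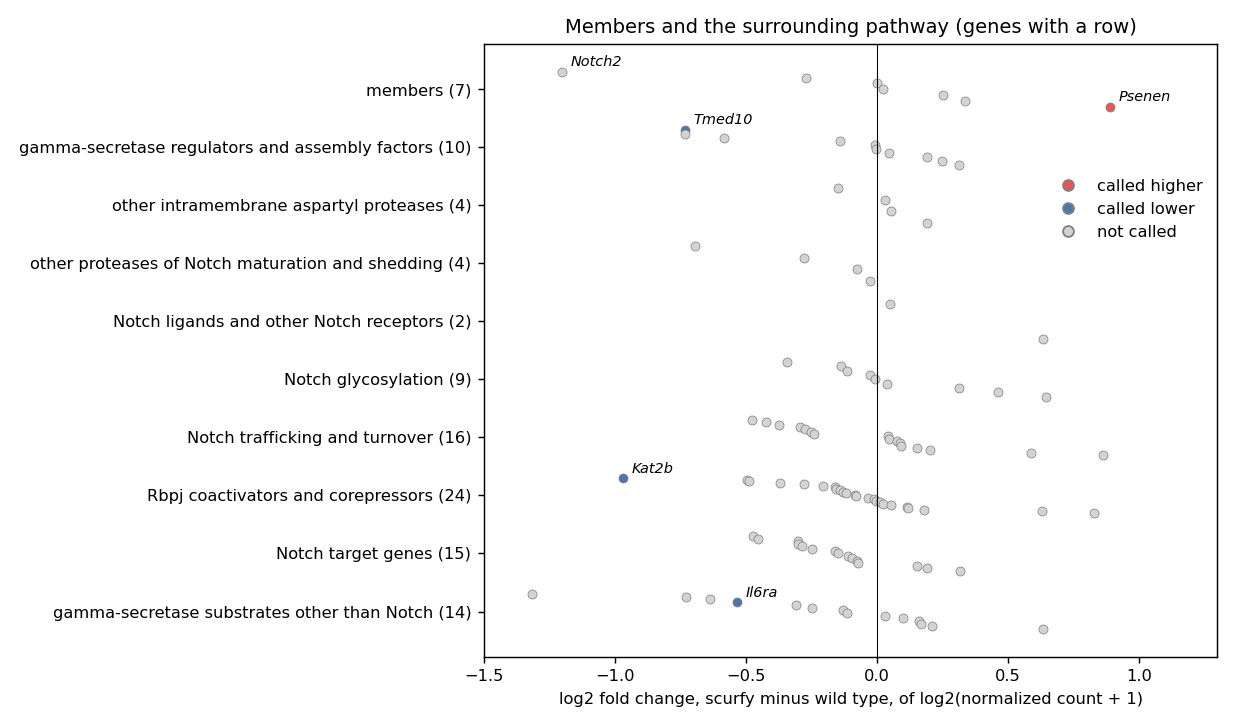
Log2 fold change, scurfy minus wild type, of each gene with a row, by list, with the number of genes in brackets; colour marks genes called by limma over the whole table. Psenen is to the right at 0.89, Tmed10, Kat2b and Il6ra are the called genes to the left, and the other listed genes are grey.

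Genes whose values ran most like those of Psenen over the 6 libraries were Dad1 (Pearson r = 0.994), a subunit of the oligosaccharyltransferase, Sympk (0.993), a scaffold of messenger RNA 3′ end processing, and Gm10051 (0.993), a predicted gene. In scurfy and wild-type libraries, Dad1 averaged 4785 ± 228 and 2295 ± 342 normalized counts, Sympk 811 ± 17.7 and 545 ± 27.6, and Gm10051 502 ± 34.4 and 238 ± 22.2. These are 3 of 325 genes with r above 0.9 among 9027 searched, and all points share the same 6 libraries and the same 2 groups. For Notch2 the nearest were Dlgap5 (r = 0.994), Rsu1 (0.988) and Arl8a (0.983), with 113 genes above 0.9. These too share the 6 libraries, and Notch2 itself rests on 7 to 90 reads per library.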

How the data were processed

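The submitters' processing notes list Trim Galore 0.4.4, STAR 2.6, featureCounts, edgeR and DESeq2, with no order or role, and the build NCBIM37. Libraries were primed with oligo-dT and amplified by in vitro transcription, per the labels' protocols. Each deposited value is a signal: reads scaled by a single size factor for its library. This was worked out from the numbers, which gave whole reads in 100% of nonzero cases within 0.01 read (in wild-type library 2 taking the smallest value as 2 reads). The authors' deposited columns of log2 fold change, its error, a test score and p-value were used only where named. For the members, the deposited log2 fold changes equal, after rounding, those of DESeq2 on recovered reads given below. They are therefore not a separate estimate. The smallest mean in the table was 7.10, so lower genes are not covered.

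Since the values were normalized, limma 3.58.1 (R 4.3.3) was run on log2(value + 1) with trended, robust empirical Bayes moderation over all 11581 genes, with 4 residual degrees of freedom, Benjamini-Hochberg adjustment and a threshold of 0.05. Each fold change compares scurfy to wild type on this log2 scale and is understated for low genes. edgeR 4.0.16, DESeq2 1.42.0 and voom were run on recovered reads. Of the gene IDs, 11571 matched GENCODE M21 (GRCm38), which gave exon lengths. Files use another build, so positions come from the reference alone. The script was tested on simulated data, where 80% of 100 genes changed by 1 on the log2 scale and 98% of 100 changed by 2 were recovered, with 9 false calls among 11581 genes. The changed genes were drawn from those with a mean of at least 50, and the simulated spread was assumed, not estimated from these libraries. The recovery rates therefore do not cover low genes such as Notch2.

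The members and lists were chosen with earlier results of these data known. Text names every member, from each list up to 4 called genes with the smallest p or else the 1 with the smallest p, called markers of other cell types, and the 3 genes most alike to the member of largest change among subunits and among Notch1, Notch2 and Rbpj. Other pathway genes (Tmed2, Rer1, Furin, Lfng, Ep300, Maml1, Maml2, Maml3, Nrarp, Hes5, Notch4, App, Cd44, Insr, Ccbl1, those with a motif), the marker Cd3d, the neighbour Copa and the antisense 0610009E02Rik were named after values were seen, and the forkhead search was added later. Listed names matched through RefSeq synonyms in 4 cases. The planned protein comparison was not made, and 1 planned list is not reported here. Ratios to Psen2 and the markers Cd68 and Fcgr3 were chosen after values were seen.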

Additional observations from a re-analysis of the deposited data

How the results depend on the processing

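Over 15 alternatives (14 for Notch2) each member's difference between groups kept within 1 residual SD of its reported value in 100 of 104 cases. The exceptions were Psenen and Notch1, each on library size alone and with the length trend removed. The yardstick is each gene's own spread, so genes with a wide spread can move far and still count as kept. Aph1a ran from 0.13 to 0.55 and Notch2 from -1.56 to -0.92 within it. The 100 of 104 is therefore no measure of stability. The count of genes called over the whole table, 518, was 929 on library size alone, with 168 higher and 761 lower, 891 with DESeq2 and 304 with the length trend removed. Leaving out 1 library gave 113 to 403, the lowest without wild-type library 3. For the pathway genes, 3 called, the count was 9 on library size alone and 7 with DESeq2, and 0 to 3 with 1 library left out. On library size alone the added genes were Bcl11b, Cbl, L3mbtl3, Mfng, Tmed2 and Ubqln2. Ranking wild-type levels by longest transcript moved 4 genes.

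Same-numbered libraries did not deviate together (correlations of 0.01, -0.04 and -0.07), and none of the 6 libraries correlated best with its own number, so the numbers are taken as names only. With the replicate block 372 genes were called, of which 356 were among the 518, with 1 member and 3 pathway genes called as before. Depth limits Notch2 most, at 7 to 15 reads per scurfy library, where 3 reads are worth 1.45 to 3.99 normalized counts.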
